A study of Mus musculus with 16 samples.

Results

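Glucocorticoid-responsive genes were followed in RNA of the mouse left ventricle after an operation outside the heart. The genes were fixed by symbol as Fkbp5, Tsc22d3, Zbtb16, Arrdc2, Rasd1, Sgk1, Ddit4, Errfi1 and Nr3c1, which makes 9 genes of the 57143 in the deposited table. All 9 were found in the table and passed the filter on low values, a mean of 0.5 TPM or more (TPM, a length-corrected share of a library's transcripts) over all libraries, which 16866 genes passed. The study operated on the abdomen of male C57BL/6 mice under sevoflurane, an inhaled anaesthetic, and collected hearts at 4 times labelled 0h, 3h, 24h and 7d, with 4 libraries at each. Every library carries the label of surgery, the 0h libraries included, so there was no group without an operation. The labels give neither the animals' age nor the hour of day, and do not tell if libraries of the same time can share an animal. Each p-value therefore rests on the variation among these libraries, which may be partly technical.

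Glucocorticoids, in the mouse mainly corticosterone, are steroids that the adrenal cortex releases under stress. They bind the glucocorticoid receptor, which is held by HSP90 and its co-chaperones in the cytoplasm and moves to the nucleus once it has bound the steroid. There it binds DNA, often as a pair of receptors on a palindrome of the hexamer AGAACA, and changes the transcription of nearby genes. No steroid was measured in these samples, and the genes below also respond to other signals.

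Total counts per library ran from 8313655 to 12893551. Summed TPM of the 8 cardiomyocyte markers was 69400 to 72600 at 0h and 67100 to 72400 at 3h. It was 58700 to 67300 at 24h, below every 0h library, and 59900 to 80200 at 7d. Markers of other cells differed between libraries too. The 10 neutrophil markers summed to 11.1 to 13.2 TPM at 0h, 148 to 570.4 TPM at 3h, 68.7 to 331 TPM at 24h and 17.6 to 108 TPM at 7d. The 9 hepatocyte markers summed to 80.9 TPM in 3h replicate 2 and 64.7 TPM in 3h replicate 3, against 0 to 5.75 TPM at 0h. At 3h against 0h, 6 of 7 neutrophil markers and 4 of 7 hepatocyte markers tested were higher and 0 lower, and of 6 endothelial markers 1 was lower and 0 higher. Over all genes 1.86% were higher and 3.18% lower. The filter on mean TPM kept 7 of the 10 neutrophil and 7 of the 9 hepatocyte markers. Markers this low at 0h could pass it through the 3h libraries, so their shares of those tested are a description. Summed endothelial markers were 433 to 577 TPM at 0h, 303 to 367 TPM at 3h, 284 to 459.9 TPM at 24h and 317 to 505 TPM at 7d. The atrial marker Myl7 was at 146 TPM in 3h replicate 3 and at 63.8, 126 and 159 TPM in 24h replicates 1, 2 and 4. It was at most 9.59 TPM in the 0h and 7d libraries. Sln, another atrial marker, was at 32.9 TPM in 3h replicate 3 and at 15.7, 18.5 and 39.3 TPM in those 24h libraries. In the 0h and 7d libraries Sln was at most 2.58 TPM. Summed over the 5 atrial markers, most of it Nppa, the level was 453 to 1460 TPM at 0h and 256 to 738 TPM at 3h. It was 479 to 1000 TPM at 24h and 534 to 2760 TPM at 7d, so this sum did not follow Myl7 and Sln. Of the 4 atrial markers tested, 2 were higher and 0 lower at 24h against 0h, where 17.4% of all genes were called. At 7d against 24h 3 were lower and 0 higher, where 8.08% of all genes were called. The part of all these markers in the results below was not tested, apart from the fits without a library or with Myl7 as a covariate.

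The sequence before a gene's start is shown for Sgk1, whose window holds the full palindrome, and for Arrdc2, which had the largest change at 3h among the 6 genes with a window. Windows are the 250 bases before a transcript start in RefSeq (GRCm38.p6), read 5′ to 3′ along the gene's strand. The table matched 6 of the 9 genes with 14 starts, and Zbtb16, Rasd1 and Nr3c1 were not matched. Capitals mark AGAACA or its reverse complement TGTTCT.
Sgk1, chr10:21993640-21993889, + strand: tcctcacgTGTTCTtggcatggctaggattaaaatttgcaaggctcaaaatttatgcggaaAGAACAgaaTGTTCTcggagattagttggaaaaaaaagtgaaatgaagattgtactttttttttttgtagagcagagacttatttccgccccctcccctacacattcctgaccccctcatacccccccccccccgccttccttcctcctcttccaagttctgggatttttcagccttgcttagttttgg
Arrdc2, chr8:70839721-70839970, - strand: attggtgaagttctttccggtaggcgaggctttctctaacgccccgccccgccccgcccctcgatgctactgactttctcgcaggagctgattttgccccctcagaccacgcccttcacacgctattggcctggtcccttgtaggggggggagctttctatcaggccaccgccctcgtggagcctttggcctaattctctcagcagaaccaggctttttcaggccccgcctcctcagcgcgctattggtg
The Sgk1 window lies inside the gene, before 1 of its 6 starts, and the Arrdc2 window lies before the gene; neither overlaps an exon in GENCODE M21.

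The palindrome, AGAACA and TGTTCT with any 3 bases between them, reads the same on both strands and was present at 1 of the 14 starts, as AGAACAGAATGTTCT at chr10:21993701-21993715, its first base at position -189 counted from that Sgk1 start. Among all 32851 starts of the RefSeq table, 3 held it, or 0.00913%. The hexamer AGAACA on either strand, which is also part of the palindrome, was present at 4 of the 14 starts, 3 of Sgk1 and 1 of Tsc22d3, against 16.1% of all starts. In the windows of Fkbp5, Arrdc2, Ddit4 and Errfi1 these letters were not found, which says only that they are not in these 250 bases. Among 28 further glucocorticoid-responsive genes, 25 matched with 29 starts, of which 0 held the palindrome and 3 the hexamer. A match of letters is a description of the window and no record of binding.

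The first comparison, 3h against 0h, addressed the hours just after the operation. Arrdc2 and Rasd1 rose and Nr3c1, the gene of the receptor itself, fell, so 3 of the 9 genes passed an adjusted p of 0.05 in edgeR's quasi-likelihood test, against 5.04% of all genes tested. The 2 that rose compare with 1.86% of all genes called higher. In the same comparison 5 of the 9, Fkbp5, Tsc22d3, Arrdc2, Rasd1 and Ddit4, were higher at 3h than in any 0h library, where 3.36% of all genes were so placed. The median log2 fold change of the 9 was 0.84, against 0.00 over all genes tested (rounded from 0.0032). TPM of all genes tested shifted by a median of -0.15 on the log2(TPM + 1) scale at 3h, and fold changes here come from counts scaled by TMM. In whole tissue, fewer cells of a type and less RNA per cell cannot be told apart.

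**Figure D1:**
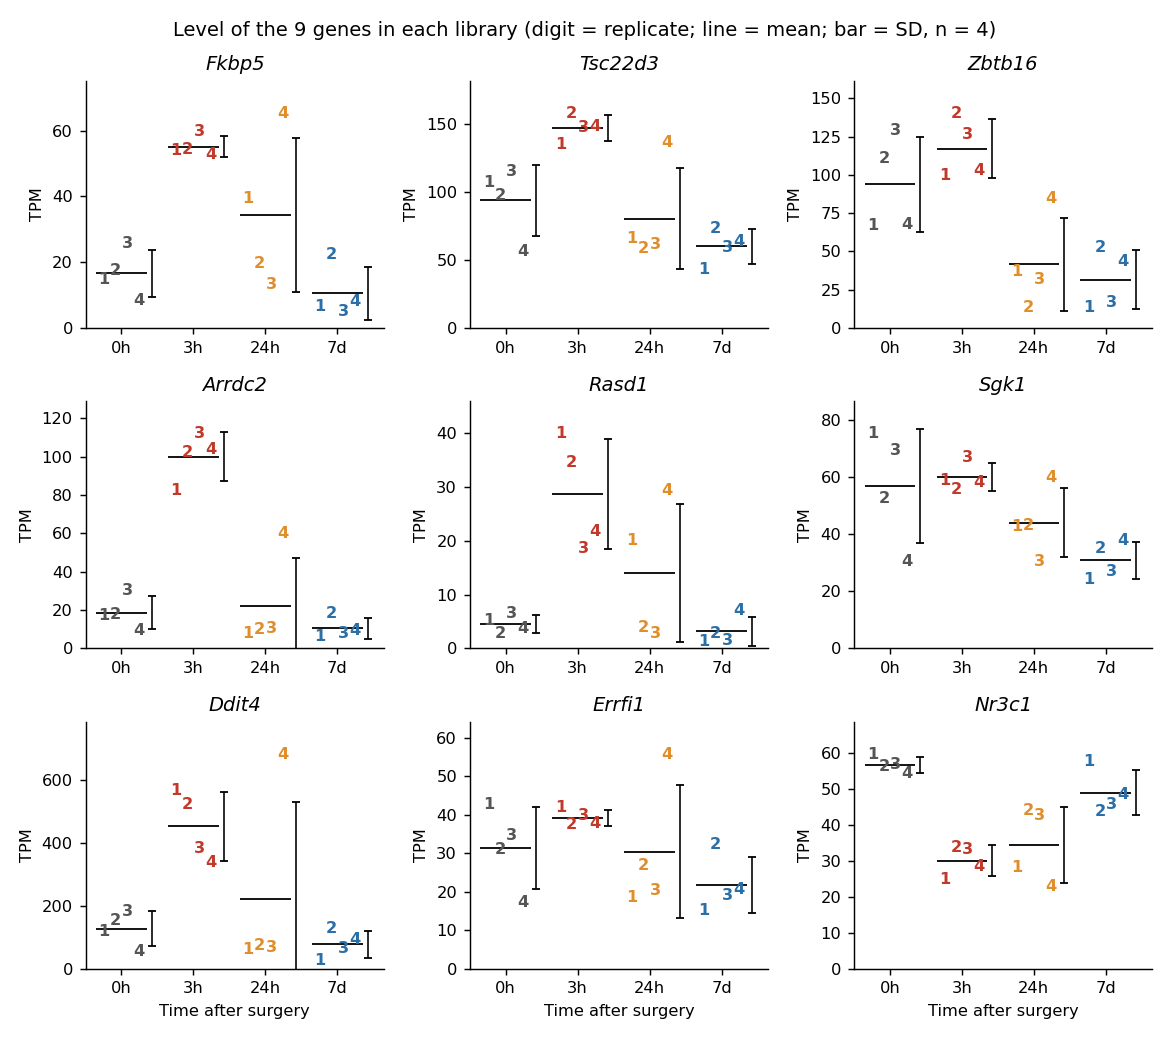
TPM of each of the 9 genes (vertical axes, from 0) in each library at 0h, 3h, 24h and 7d (horizontal axes). Digits are replicate numbers, lines are means and bars SD of 4 libraries, shown down to 0 where they would pass below it; at 3h the libraries lie close together for most genes, and at 24h replicate 4 lies above the other 24h libraries for all genes but Nr3c1.

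Arrdc2 encodes a member of the alpha-arrestin family, adaptor proteins for the sorting of membrane proteins (ENSMUSG00000002910, chr8:70835129-70839720, - strand). Its level was 82.1, 102, 112 and 104 TPM in the 3h libraries, against 17.1, 17.6, 30.2 and 9.46 TPM in the 0h libraries. Every 3h library was above every 0h library, by a wide gap, and the 0h libraries differed among themselves 3.20-fold. The mean of 99.9 ± 12.7 TPM at 3h, against 18.6 ± 8.60 TPM at 0h (SD, n = 4 each), gave a log2 fold change of 2.62 (SE 0.65, adjusted p = 0.0399 by edgeR).

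Rasd1, first described as a dexamethasone-induced Ras-related GTPase, showed the largest log2 fold change of the 9 and the lowest level (ENSMUSG00000049892, chr11:59963181-59964944, - strand). It measured 39.9, 34.6, 18.6 and 21.7 TPM in the 3h libraries, against 5.27, 2.81, 6.56 and 3.67 TPM in the 0h libraries. These rest on 98 to 223 counts per library at 3h and 14 to 34 at 0h. The groups did not overlap, although replicates 3 and 4 at 3h had clearly less than replicates 1 and 2. The log2 fold change was 2.85 (SE 0.74, adjusted p = 0.0471 by edgeR).

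The calls of Arrdc2 and Rasd1 at 3h were lost when any 1 of the 8 compared libraries was left out, with adjusted p up to 0.121 for Arrdc2 and 0.133 for Rasd1 by edgeR. Their log2 fold changes then stayed between 2.42 and 2.93 for Arrdc2 and between 2.60 and 3.04 for Rasd1. Both calls were also lost with Myl7 as a covariate, where the log2 fold changes were 2.20 for Arrdc2 (adjusted p = 0.122) and 2.77 for Rasd1 (0.130), by edgeR. Without both liver-marker-rich libraries, 3h replicates 2 and 3, they were 2.58 (0.115) and 3.02 (0.0983).

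Fkbp5, Tsc22d3 and Ddit4 were higher in every 3h library than in any 0h library but did not pass the threshold. Fkbp5 encodes a co-chaperone of HSP90 that lowers the receptor's affinity for its ligand (ENSMUSG00000024222, chr17:28399094-28517527, - strand). It measured 54.0, 54.2, 59.8 and 52.8 TPM in the 3h libraries, against 14.8, 17.4, 25.8 and 8.34 TPM in the 0h libraries. The lowest 3h library was well above the highest 0h library, and the log2 fold change was 1.93 (SE 0.60, adjusted p = 0.0825 by edgeR).

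Tsc22d3 encodes GILZ, a leucine zipper protein that mediates anti-inflammatory actions of glucocorticoids (ENSMUSG00000031431, chrX:140539528-140600659, - strand). Its level was 135, 158, 147 and 148 TPM at 3h and 107, 97.1, 115 and 56.3 TPM at 0h. The gap between the groups was narrow and the fold change modest, with a log2 fold change of 0.84 (SE 0.31, adjusted p = 0.131 by edgeR). Ddit4, the gene of REDD1, an inhibitor of the growth-promoting kinase complex mTORC1, had the highest level of the 9 at 3h (ENSMUSG00000020108, chr10:59949669-59951834, - strand). It measured 567, 522, 383 and 338 TPM in the 3h libraries and 119, 153, 183 and 54.7 TPM in the 0h libraries, a log2 fold change of 2.03 (SE 0.83, adjusted p = 0.172 by edgeR). Both groups spread widely without meeting.

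When 3h and 0h were fitted without the other times, these 3 genes passed the threshold as well, with adjusted p = 0.00643 for Fkbp5, 0.0111 for Tsc22d3 and 0.0147 for Ddit4 by edgeR, and 6 of the 9 genes were called against 19.1% of all genes. The fit over all times shares 1 estimate of the spread, which includes 24h replicate 4, a library of neither group that is described below. That library stood out by these genes' own values, so leaving it out lowers their spread by construction, and the fit without it is a description. Without it 5 of the 9 were called at 3h against 0h, where 7.07% of all genes were. These were Arrdc2 (adjusted p = 0.000873), Tsc22d3 (0.00833), Ddit4 (0.0218), Rasd1 (0.0248) and Nr3c1 (0.000206), by edgeR. Fkbp5 stood at 0.0507. Two-sided exact permutation tests on log2(TPM + 1) reached their minimum over 70 orderings, p = 0.0286, for each of the 6 genes whose groups did not overlap, and 0.129 after adjustment over the 45 tests of 9 genes and 5 comparisons.

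Zbtb16, Sgk1 and Errfi1 overlapped between 3h and 0h. Zbtb16, also called PLZF, encodes a zinc finger transcription factor (ENSMUSG00000066687, chr9:48654297-48836222, - strand), and its levels were 99.5, 140.3, 126 and 103 TPM at 3h and 67.2, 110.9, 129 and 67.7 TPM at 0h, a log2 fold change of 0.50 (edgeR, SE 0.55, adjusted p = 0.637). Sgk1, a kinase named for its response to serum and glucocorticoids and known for its action on sodium channels (ENSMUSG00000019970, chr10:21882184-21999903, + strand), had 58.8, 55.7, 67.1 and 58.2 TPM at 3h and 75.3, 52.7, 69.3 and 30.6 TPM at 0h. All 3h values of Sgk1 lay inside the 0h range, and the gene whose window holds the palindrome had the smallest change of the 9 in this comparison (edgeR, log2 fold change 0.27, SE 0.26, adjusted p = 0.587). Errfi1, the gene of MIG6, an inhibitor of the epidermal growth factor receptor (ENSMUSG00000028967, chr4:150853919-150868892, + strand), measured 41.9, 37.4, 39.9 and 37.8 TPM at 3h and 42.6, 30.9, 34.6 and 17.3 TPM at 0h, a log2 fold change of 0.52 (edgeR, SE 0.38, adjusted p = 0.455). For these 3 genes the 3h libraries sat in the upper part of the 0h range or, in Zbtb16 replicate 2, above it.

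**Figure D2:**
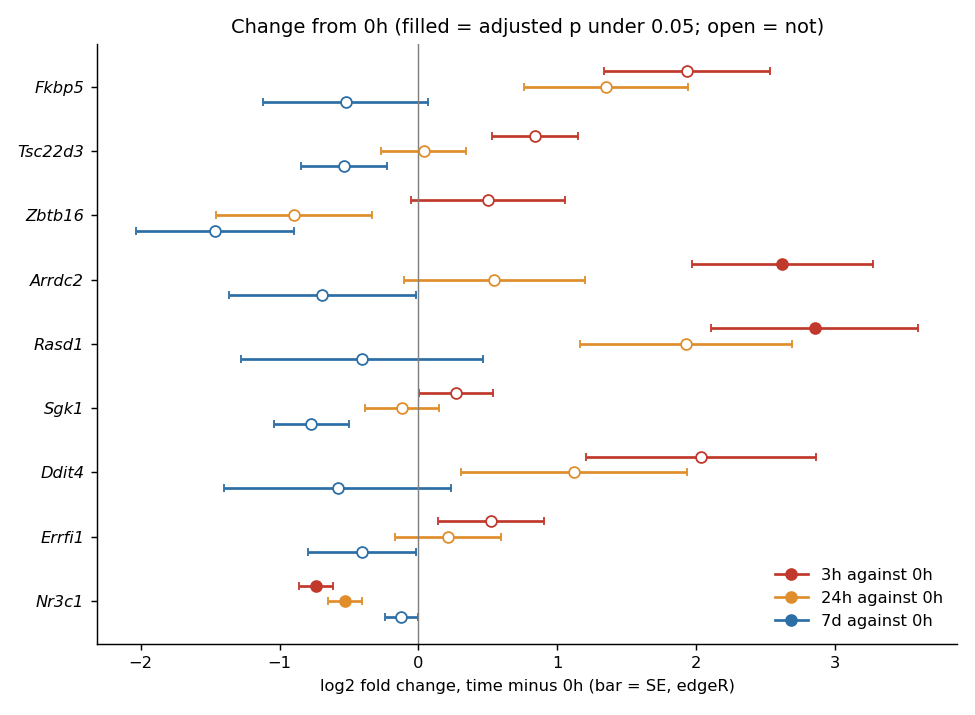
Log2 fold change of each gene at 3h, 24h and 7d against 0h (horizontal axis, edgeR, bars are SE); the genes run down the page. Filled points pass an adjusted p of 0.05: Arrdc2 and Rasd1 at 3h to the right of 0, and Nr3c1 at 3h and 24h to the left.

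Nr3c1, which encodes the glucocorticoid receptor, moved the other way and with the smallest SE of the 9 (ENSMUSG00000024431, chr18:39410545-39519421, - strand). The receptor gene measured 24.9, 33.7, 33.2 and 28.5 TPM in the 3h libraries, against 59.7, 56.2, 56.6 and 54.2 TPM in the 0h libraries. The 0h libraries were nearly equal, with a coefficient of variation of 4.0%, and all 3h libraries were far below them. The mean was 30.1 ± 4.18 TPM at 3h, against 56.7 ± 2.27 TPM at 0h (SD, n = 4 each), a log2 fold change of -0.74 (SE 0.12, adjusted p = 0.00188 by edgeR). In TPM, 20.6% of all genes were lower at 3h without overlap, so the separation by itself was common, while 3.18% of all genes were lower and past the threshold.

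At 24h against 0h, Nr3c1 was the 1 gene of the 9 past the threshold, where 17.4% of all genes were. It had 28.2, 44.1, 42.5 and 22.8 TPM in the 24h libraries, all below the 0h libraries (log2 fold change -0.53, SE 0.12, adjusted p = 0.00468 by edgeR). Without overlap, 17% of all genes were lower in TPM at 24h. The call held without each single library at 3h (adjusted p up to 0.0112) and at 24h (up to 0.020), and was lost at 24h with Myl7 as a covariate (log2 fold change -0.46, adjusted p = 0.239), by edgeR. At 7d against 24h Nr3c1 was higher, with 57.7, 43.6, 45.6 and 48.5 TPM at 7d, a log2 fold change of 0.41 (edgeR, SE 0.12, adjusted p = 0.0381), again the 1 gene of the 9 called, against 8.08% of all genes. The 7d and 24h ranges overlapped, and that call was lost in 5 of the 8 fits that each left out 1 of the compared libraries, with adjusted p up to 0.140 by edgeR. The difference from 0h at 7d was -0.12 on the log2 scale (SE 0.12, adjusted p = 0.662 by edgeR), with 7d replicate 1 inside the 0h range and the other 3 libraries below it.

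The 24h group was split for the 8 genes other than Nr3c1. Replicate 4 held the highest level of its group in 8 of the 8, where it did so for 13.1% of all genes tested. Ddit4 showed the widest split, with 61.4, 74.0 and 68.2 TPM in 24h replicates 1 to 3 and 682 TPM in replicate 4, more than in any 3h library. Arrdc2 measured 7.96, 10.1 and 10.5 TPM in replicates 1 to 3 and 59.8 TPM in replicate 4. In 6 of the 8 genes, the exceptions being Zbtb16 and Arrdc2, replicate 4 was at or above the lowest 3h library. The share of all genes so placed was not counted, so this is a description and no result about the 8 genes.

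Tsc22d3 had 65.9, 58.1 and 61.3 TPM in 24h replicates 1 to 3, against 136 TPM in replicate 4. Errfi1 was at 18.5, 26.7 and 20.4 TPM in replicates 1 to 3 and at 55.7 TPM in replicate 4. Both genes stood within the 0h range in replicates 1 to 3. For Fkbp5 the 4 libraries measured 39.4, 19.6, 13.2 and 65.3 TPM, and for Rasd1 20.05, 3.93, 2.73 and 29.3 TPM, so that replicate 1 was also above the 0h range in these genes. Sgk1 was at 42.6, 43.3, 30.4 and 60.0 TPM and Zbtb16 at 37.0, 13.2, 31.5 and 84.3 TPM. Of the 24 values of the 8 genes in 24h replicates 1 to 3, 16 lay within the 0h range, 2 above it and 6 below it.

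Nr3c1 had its lowest value of all 16 libraries in 24h replicate 4, at 22.8 TPM. Among the 24h libraries, replicate 4 was the lowest for 34.7% of all genes tested. The summed TPM of the 9 genes was 1196 in that library, against 281 to 321 in the other 24h libraries, 893 to 1138 at 3h, 302 to 651 at 0h and 193 to 410 at 7d. In the same library the neutrophil markers summed to 331 TPM, against 68.7 to 115 TPM in the other 24h libraries. Over the 4 libraries of 24h together 10 of the 10 had a count, as at 3h. The endothelial markers summed to 284 TPM in 24h replicate 4, the lowest of the 16 libraries, against 401 to 459.9 TPM in the other 24h libraries. Myl7 was at 159 TPM in replicate 4 and at 126 TPM in 24h replicate 2, and Sln at 39.3 and 18.5 TPM. The 5 atrial markers summed to 690 TPM in replicate 4, against 479 to 1000 TPM in the other 24h libraries. The part of these markers in the levels of replicate 4 was not tested.

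**Figure D3:**
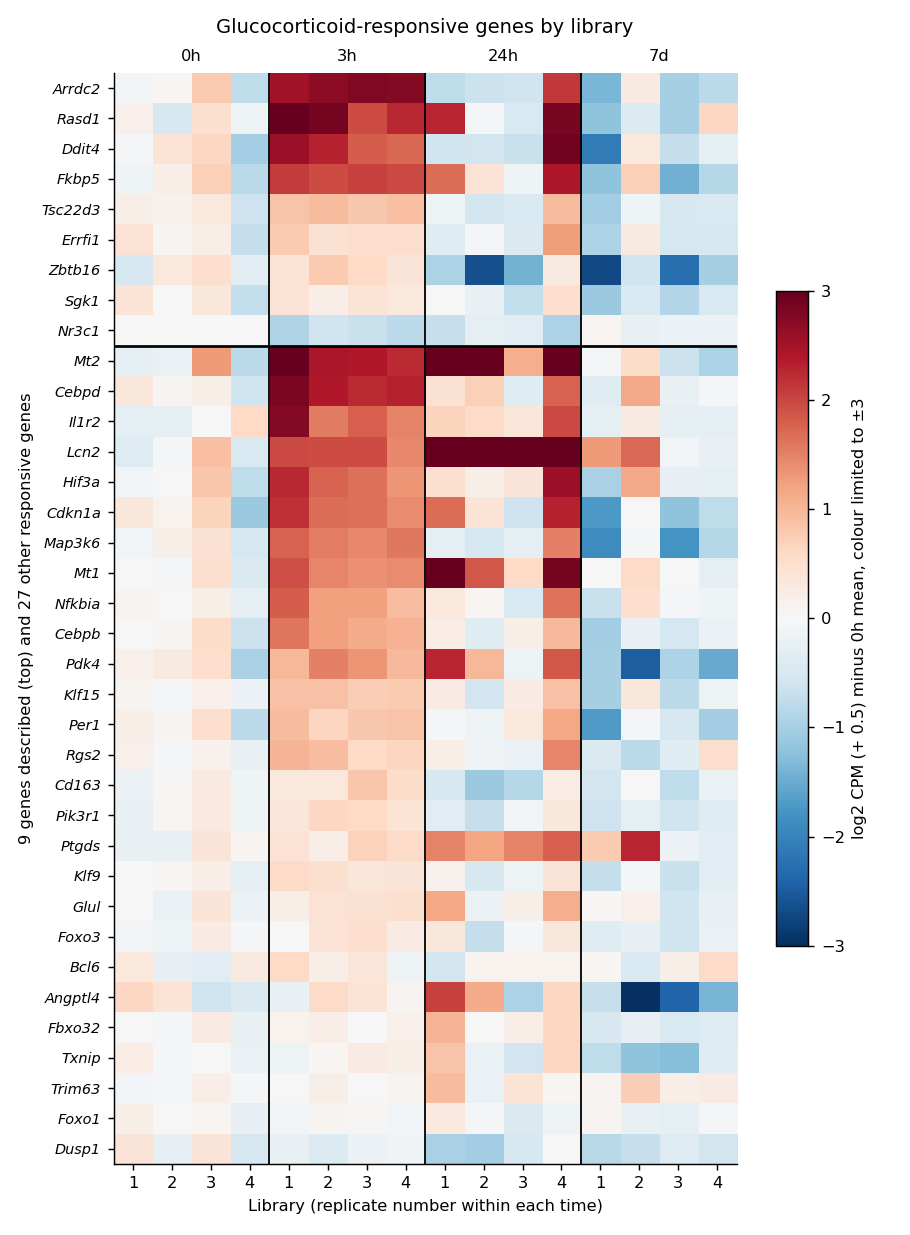
Log2 CPM (plus 0.5) minus the 0h mean for the 9 genes (above the line) and 27 other glucocorticoid-responsive genes (below it) in each library, in time order and by replicate number; the colour scale is limited to ±3. Most rows are red in all 3h libraries and again in 24h replicate 4, and 24h replicates 1 to 3 are paler in most rows, while Lcn2, Ptgds, Mt1, Mt2 and Il1r2 are red in every 24h library.

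The comparison of 24h with 3h, the later against the earlier time, depended on that library and on the test. With all libraries 0 of the 9 genes passed the threshold by edgeR, against 7.58% of all genes, while 3 had an unadjusted p under 0.05. With the same libraries DESeq2 called 0 (9.99% of all genes), edgeR without robust estimation 1 (7.94%), limma on log2(TPM + 1) 3 (5.55%), voom with sample weights 4 (7.24%) and edgeR on all genes with a count 7 (6.27%). Arrdc2 and Zbtb16 were lower in every 24h library than in any 3h library, as were 5.86% of all genes. Replicate 4 is the highest 24h library in the 8 genes and stood out by these values, so that leaving it out lowers their 24h level by construction, and the values without it are a description. Without it 4 of the 9 were lower past the threshold, against 7.64% of all genes. These were Arrdc2 (log2 fold change -3.42, adjusted p = 0.000283), Tsc22d3 (-1.27, 0.000635), Ddit4 (-2.77, 0.00784) and Zbtb16 (-2.09, 0.0373), by edgeR.

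**Figure D4:**
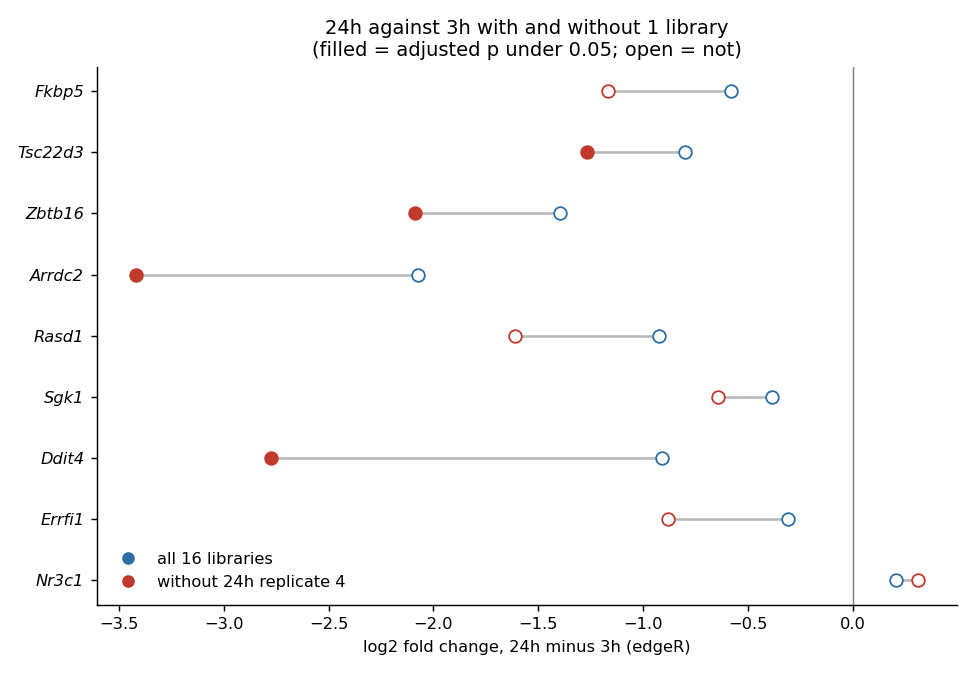
Log2 fold change of each gene at 24h against 3h (horizontal axis, edgeR) with all 16 libraries and without 24h replicate 4; genes run down the page and filled points pass an adjusted p of 0.05. Replicate 4 is the highest 24h library in the 8 genes other than Nr3c1, so their points without it lie to the left by construction; 4 of them are filled.

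At 7d none of the 9 genes differed from 0h past the threshold in edgeR's test of the filtered genes. Their median log2 fold change at 7d against 0h was -0.54, against 0.00 over all genes, and all 9 estimates were negative, but 0 passed the threshold by edgeR, where 0.86% of all genes did. Zbtb16 and Sgk1 reached an unadjusted p under 0.05, and 1 of the 9, Sgk1, was called by DESeq2 (adjusted p = 0.0421; 2.85% of all genes). Voom with sample weights called 1 of the 9 (2% of all genes), and edgeR on all genes with a count called 6 (2.5%). Zbtb16 measured 13.2, 52.5, 16.8 and 43.1 TPM at 7d, all below the 0h libraries (log2 fold change -1.46, SE 0.57, adjusted p = 0.247 by edgeR), a separation that 8.02% of all genes showed.

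Sgk1 had 24.1, 34.9, 26.8 and 37.8 TPM at 7d, a log2 fold change of -0.77 (edgeR, SE 0.27, adjusted p = 0.194), and only the lowest 0h library reached down into that range. The lowest, median and highest 7d libraries had 5.05, 7.23 and 22.4 TPM for Fkbp5 and 6.17, 8.58 and 18.4 TPM for Arrdc2. For Ddit4 they had 26.1, 78.0 and 129 TPM, and for Rasd1 1.29, 2.13 and 7.01 TPM. In each of these 4 genes the lowest 7d library was below the 0h range and the highest was inside it, or, for Rasd1, above it. Tsc22d3 ranged from 43.1 to 73.4 TPM at 7d and Errfi1 from 15.2 to 32.3 TPM.

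Replicate 2 was the highest 7d library in 6 of the 8 genes other than Nr3c1 and replicate 1 the lowest in 7. For all genes tested these shares were 19.9% and 19.2%. At 0h replicate 3 was the highest in 6 of the 8 and replicate 4 the lowest in 6, against 28.1% and 37.1% of all genes. Within these times the same libraries were thus highest or lowest for most of the 8 genes.

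At 3h no library was the highest in more than 3 of the 8 genes, and the libraries lay closest together relative to their mean. In TPM the SD at 3h was larger than at 0h for Arrdc2 (12.7 against 8.60), Rasd1 (10.2 against 1.67) and Ddit4 (109 against 55.1). It was smaller for Fkbp5, Tsc22d3, Zbtb16, Sgk1 and Errfi1. In 8 of the 8 genes the coefficient of variation of TPM was lowest at 3h, as it was for 28.9% of all genes tested. Its median over the 8 was 35.8% at 0h, 10.5% at 3h, 70.7% at 24h and 54.3% at 7d, against 14.3%, 15.5%, 23.7% and 18.1% over all genes. Fkbp5 varied by 5.67% at 3h and Errfi1 by 5.32%, while Rasd1, with the fewest counts, varied by 35.5%. Of the 27 other glucocorticoid-responsive genes tested, 21 also varied least at 3h. These shares are a description, since the genes share their libraries.

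**Figure D5:**
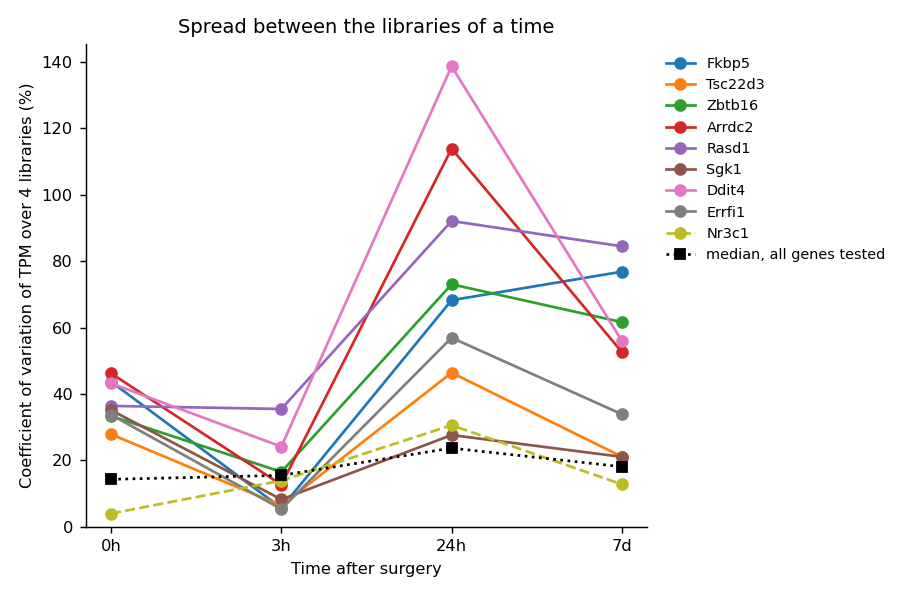
Coefficient of variation of TPM over the 4 libraries of a time (vertical axis, percent) at 0h, 3h, 24h and 7d for each gene, with the median of all genes tested as black squares. The 8 genes other than Nr3c1 (dashed) dip at 3h, to between 5.32% and 35.5%, and are highest at 24h except Fkbp5 (7d) and Sgk1 (0h).

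Ordered by mean level, 3h came highest for the 8 genes and lowest for Nr3c1, and 7d came lowest for the 8. For Fkbp5, Arrdc2, Rasd1 and Ddit4 the means ran 3h, 24h, 0h and 7d from high to low, and for Tsc22d3, Zbtb16, Sgk1 and Errfi1 they ran 3h, 0h, 24h and 7d. Neighbours in these orders overlapped in range except 3h and 0h for Tsc22d3 and 3h and 24h for Arrdc2. For Nr3c1 the order was 0h, 7d, 24h and 3h, with every pair of neighbours overlapping. These orders rest partly on 24h replicate 4. Without it the 24h means were 9.53 TPM for Arrdc2, 67.9 TPM for Ddit4 and 27.2 TPM for Zbtb16, below the 7d means of 10.4, 77.9 and 31.4 TPM, so that 7d was lowest for 5 of the 8 genes, and 24h was also below the 0h means of 18.6 TPM for Arrdc2 and 127 TPM for Ddit4. Over the 4 times together 5 of the 9 changed by edgeR, against 20.2% of all genes: Nr3c1 (adjusted p = 0.00052), Arrdc2 (0.00865), Rasd1 (0.0170), Fkbp5 (0.0286) and Tsc22d3 (0.0289). Without 24h replicate 4 it was 9 of the 9, against 17.3% of all genes. That library stood out by these genes' own values, so leaving it out lowers their spread by construction, and this count is a description.

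Other genes known to respond to glucocorticoids were described from a list of 28, of which 27 passed the filter. At 3h against 0h, 4 were higher and 0 lower past the threshold, where 1.86% of all genes were higher, with a median log2 fold change of 0.75. Without 24h replicate 4 it was 11 higher and 0 lower, where 7.07% of all genes were called in either direction. That library was the highest at 24h in 17 of the 27, against 13.1% of all genes, so this count is a description too. Cebpd, a transcription factor of the acute phase, measured 132, 109, 99.1 and 98.0 TPM in the 3h libraries and 30.0, 23.4, 25.8 and 13.9 TPM in the 0h libraries (log2 fold change 2.43, SE 0.45, adjusted p = 0.0106 by edgeR). Every 3h library was far above every 0h library. Il1r2, a decoy receptor for interleukin 1 (log2 fold change 3.85, adjusted p = 0.0102), Cebpb, a related transcription factor (1.21, 0.0354), and Lcn2, the iron-trafficking lipocalin (1.97, 0.0463), were the other 3, by edgeR. Il1r2 had only 0, 0, 1 and 4 counts in the 0h libraries and 33, 12, 16 and 11 in the 3h libraries. It passed the filter on mean TPM through its 3h values, so its call is a description. These 4 genes respond to inflammatory signals too, and the neutrophil markers were higher at 3h as given above; their part was not tested.

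At 24h against 0h, 5 of the 27 were called, 5 higher and 0 lower, a share near the 17.4% of all genes, with a median of 0.50. Without 24h replicate 4 it was 3 higher and 2 lower, against 10.5% of all genes, with a median of 0.15. Lcn2 (log2 fold change 4.43, adjusted p = 0.000126) and the metallothioneins Mt1 (2.33, 0.00371) and Mt2 (3.21, 0.00619), which bind zinc and copper, were highest at this time, and Fbxo32, a ubiquitin ligase of muscle wasting, rose by 0.51 (adjusted p = 0.0299), by edgeR. Mt2 had 1788, 1242, 335 and 2543 TPM in the 24h libraries and 145, 141, 412 and 88.3 TPM in the 0h libraries. Replicate 3 at 24h thus lay inside the 0h range, and replicate 4 was again the highest. At 24h against 3h, 1 of the 27 was higher, Lcn2, and 3 were lower, Cebpd, Pik3r1 and Cd163, where 7.58% of all genes were called. Without 24h replicate 4 it was 1 higher and 10 lower, where 7.64% of all genes were called. That library stood out by the 9 genes' own values, so this count is a description. At 7d against 24h, 9 of the 27 were lower and 0 higher, where 8.08% of all genes were called. Among the 9 were Lcn2, Fbxo32, Pdk4 and Mt2. Without 24h replicate 4 it was 6 lower and 0 higher at 7d against 24h. This count too is a description, as it leaves out a library that was often the highest, and no share of all genes stands beside it. At 7d against 0h 0 passed in either direction by edgeR.

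Of 15 tested genes for the second corticosteroid receptor, steroid enzymes and receptor chaperones, 0 were higher and 1 lower at 3h. Over all genes 5.04% were called and 3.18% were lower. The 1 lower gene was Dnaja1, a co-chaperone of HSP70, at 22.7 ± 2.35 TPM against 37.9 ± 4.27 TPM at 0h (SD, n = 4 each), a log2 fold change of -0.55 (SE 0.12, adjusted p = 0.00898 by edgeR). The mineralocorticoid receptor gene Nr3c2, named after its values were seen, measured 6.55, 8.01, 7.46 and 6.79 TPM at 3h and 17.2, 14.2, 11.5 and 10.7 TPM at 0h. It too was lower in every 3h library, without passing the threshold (log2 fold change -0.72, SE 0.21, adjusted p = 0.0511 by edgeR). At 24h 2 of the 15 were higher and 0 lower, no larger a share than the 17.4% of all genes called. Hsd11b1, the enzyme that regenerates active glucocorticoid inside cells, had 34.9, 23.5, 21.3 and 31.4 TPM at 24h, against 19.3, 18.9, 18.3 and 14.9 TPM at 0h, with no overlap (log2 fold change 0.88, SE 0.22, adjusted p = 0.0132 by edgeR). Bag1, a co-chaperone of HSP70, rose by 0.43 (SE 0.12, adjusted p = 0.0177 by edgeR).

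Of 12 coregulators of nuclear receptors, 3 were lower and 0 higher at 3h, where 3.18% of all genes were lower. These were Ncor1, a corepressor (log2 fold change -0.44, adjusted p = 0.0231), Ncoa2, a coactivator (-0.51, 0.0335), and the acetyltransferase gene Ep300 (-0.57, 0.0365), by edgeR. At 24h 1 was higher and 0 lower, also no larger a share than over all genes, the deacetylase gene Hdac3. At 7d against 0h 1 was lower and 0 higher, the acetyltransferase gene Crebbp, where 0.86% of all genes were called. Clock genes, whose level follows the hour of day, were measured because some respond to glucocorticoids. Of 17 tested, 0 passed the threshold at 3h by edgeR, where 5.04% of all genes did. At 24h 1 was higher, no larger a share than the 17.4% of all genes called. It was Cry2, a clock repressor (log2 fold change 0.64, SE 0.13, adjusted p = 0.0023 by edgeR). Per1, a clock gene that glucocorticoids raise, named after its values were seen, had 48.1 ± 2.95 TPM at 3h and 32.8 ± 11.8 TPM at 0h (SD, n = 4 each), a log2 fold change of 0.75 (SE 0.37, adjusted p = 0.261 by edgeR).

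The genes most like each of the 9 were sought among 9451 genes by Pearson's r of log2 CPM over the 16 libraries, which share depth and preparation. Fkbp5 was most like Cdkn1a, a cell cycle inhibitor (r = 0.97), Slc43a3 and Bcl2l1 (0.96 each), and Tsc22d3 was most like Depp1 (0.98), Mxd4 (0.96) and Rgcc (0.95). For Arrdc2 these were B4galt4 (0.98), Rgcc (0.97) and Ms4a6c (0.96), and for Ddit4 Nfkbia, the inhibitor of NF-kappaB (0.95), Ms4a6b and Map3k6 (0.94 each). Zbtb16 ran with Pik3r1 (0.92), Timp4 and Klf9 (0.91 each), and Rasd1 with Tinagl1, Cdkn1a and Ip6k2 (0.92, 0.92 and 0.91). Sgk1 was most like Esam (0.93), S1pr1 and Sorbs3 (0.91 each), and Errfi1 like Vsig2 (0.94), Sh2d3c (0.93) and Castor1 (0.92). Nr3c1 ran with Nbeal1, Zfp397 and Rasgrp3 (0.94 each). Of the 25 genes so named 5 were on the list of 28, namely Cdkn1a, Klf9, Map3k6, Nfkbia and Pik3r1. The search took genes with a mean of 5 TPM or more, which 25 of the 28 had, out of the 9451.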

How the data were processed

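The 16 libraries hold left ventricle RNA, 4 per time. TRIzol extraction, a DNase step and directional NEBNext libraries are stated, per the labels' protocols. The submitters' processing notes name cutadapt, STAR and mm10; how reads were counted, on which strand and with which versions of the tools, is not given in the sources used here. In 1 table the authors deposited, per gene and library, raw counts with no normalization, TPM and FPKM. Dividing counts by gene length returned the deposited TPM (largest relative difference 1.71e-14), and the deposited FPKM were not used. Columns were matched to samples by time and number, since the names' prefix differs from the titles'. Coordinates are of GENCODE M21 (GRCm38); in it no exon of another gene overlaps any of the 9 genes' exons.

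Counts of the 16866 genes with a mean of 0.5 TPM or more were scaled by TMM; edgeR's quasi-likelihood F test was applied to them (robust, all libraries in 1 fit), with Benjamini-Hochberg adjustment over all genes and a threshold of 0.05. SE is the log2 fold change divided by the square root of F. Log2 CPM used a prior count of 2. Alternatives were other scalings, filters, DESeq2, limma on log2(TPM + 1) and log2(TPM + 0.1), voom with sample weights, a replicate block, Myl7 as a covariate, compared groups alone, exact permutation and leaving out libraries; leaving out 24h replicate 4 from comparisons it is not part of was chosen after seeing the data, and that library stood out by these genes' own values. The genes and lists were chosen with earlier results of these data known. From each list other than the 9 genes, up to 4 genes of smallest adjusted p past the threshold are named per comparison. The comparisons share libraries, and their calls are therefore not overlapped. Tools were edgeR 4.0.16, DESeq2 1.42.0 and limma 3.58.1 in R 4.3.3, and Python 3.11.15.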

Additional observations from a re-analysis of the deposited data

Results flagged for a closer look

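In groups of 4 libraries, a value was set apart when its gap to the nearest other library divided by the group's range exceeded Dixon's 95% critical value, which chance passes in about 1 of 20 groups. Of the 36 groups of the 9 genes, 3 met this, all at 24h and all with replicate 4 as the highest library: Tsc22d3 at 136 TPM, Arrdc2 at 59.8 TPM and Ddit4 at 682 TPM. The other 24h libraries had 58.1 to 65.9 TPM for Tsc22d3, 7.96 to 10.5 TPM for Arrdc2 and 61.4 to 74.0 TPM for Ddit4.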

How the results depend on the processing

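With all libraries, edgeR called 3 of the 9 genes at 3h, 1 at 24h and 0 at 7d against 0h, 0 at 24h against 3h, 1 at 7d against 24h and 5 over time. Counts within 1.5 times of these are not listed. The share of all genes called also changed with the setting. At 3h against 0h it was 5.04% with all libraries and 19.1% with compared groups alone. The counts below therefore describe the settings and are not read as results about the 9 genes. DESeq2 called 2 at 24h and 1 at 7d against 0h and 4 at 7d against 24h; it gave Arrdc2 no adjusted p. Limma called 2 at 24h against 0h, 3 at 24h against 3h and 8 over time with either pseudocount. Voom with sample weights called 6 at 3h, 2 at 24h and 1 at 7d against 0h, 4 at 24h against 3h and 9 over time. With all genes that had a count the calls were 8, 6, 6, 7, 9 and 9, in the order of the first sentence. Without robust estimation they were 3 at 24h against 0h, 1 at 24h against 3h, 3 at 7d against 24h and 8 over time. Compared groups alone gave 6 at 3h and 0 at 7d against 24h. Myl7 as a covariate gave 1 at 3h, 0 at 24h against 0h, 0 at 7d against 24h and 2 over time, and leaving out both 3h replicates 2 and 3 gave 1 at 3h and 1 over time. The causes were not tested. Leaving out 1 library gave 1 to 5 calls at 3h, 1 to 2 at 24h and 0 to 0 at 7d against 0h, 0 to 4 at 24h against 3h, 0 to 3 at 7d against 24h and 3 to 9 over time.

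Over the 9 genes and 5 comparisons, 828 values kept direction and side of the threshold, 86 passed it newly, 33 no longer did and 29 turned round, all of them differences that edgeR had not called. At 24h against 0h, the log2 difference of Arrdc2 (0.55) was -0.17 and -0.19 by limma with pseudocounts 1 and 0.1, -0.17 in the permutation test, -0.033 by voom, -0.67 with Myl7 and -0.79 to 0.86 over single libraries left out. Tsc22d3 (0.04) was -0.27 by limma with either pseudocount and in the permutation test, -0.10 by library totals, -0.088 by voom, -0.025 with the replicate block, -0.42 with Myl7 and -0.42 to 0.20 over single libraries. Errfi1 (0.21) was -0.11 and -0.12 by limma, -0.11 in the permutation test, -0.26 with Myl7 and -0.35 to 0.39 over single libraries. Ddit4 (1.12) was -0.11 with Myl7 and -0.73 to 1.44 over single libraries, and Sgk1 (-0.12) ran from -0.37 to 0.056. At 7d against 24h, Myl7 turned Arrdc2 to 0.089 and Zbtb16 to 0.15, and over single libraries Arrdc2 ran from -1.70 to 0.10, Ddit4 from -2.09 to 0.16 and Zbtb16 from -0.97 to 0.12. The replicate block gave 2 calls at 3h, 1 at 24h and 0 at 7d against 0h, 0 at 24h against 3h, 1 at 7d against 24h and 3 over time. In 0 of 24 pairs did same-numbered libraries of different times correlate over 0.1 in their deviations, so the numbers were not taken to pair the samples. With 4 libraries a group and as few as 7 counts of Rasd1 in a library, small changes of that gene were not detectable.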

Other observations

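Tat, a liver enzyme gene that glucocorticoids raise and 1 of the 28 further genes, was below the filter. It had 1, 9, 16 and 10 counts in the 3h libraries, against 0, 0, 2 and 0 in the 0h libraries. Alb, a hepatocyte marker, had 0, 259, 218 and 41 counts in the same 3h libraries, against 0, 0, 0 and 2 at 0h.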
